A study of Rattus norvegicus with 30 samples.

Results

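The 10 genes of mitochondrial fatty acid beta oxidation followed here across the rat heart life cycle were Acadvl, Acadl, Acadm and Acads, Hadha, Hadhb, Hadh and Acaa2, and Ech1 and Decr1. Members were taken by symbol. All 10 genes had at least 1 row in each of the 3 deposited tables, with 14 rows in all, out of 27408 rows at 8 weeks, 27383 at 21 weeks and 26553 at 78 weeks. The 14 rows were built from 19 probes. Whole hearts came from 30 untreated rats of the inbred F344 strain. Each of 3 ages had 5 rats of either sex, called young (8 weeks), adult (21 weeks) and old (78 weeks), with 1 array per rat. All animals belonged to this 1 strain and breeding colony and were given the same diet. In a whole heart, fewer cells of a type and less RNA per cell cannot be told apart.

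Beta oxidation shortens fatty acyl-CoA chains in the mitochondrial matrix, each round releasing acetyl-CoA and passing electrons to the respiratory chain. A round has 4 steps. An acyl-CoA dehydrogenase chosen by chain length acts first, then a hydratase, a 3-hydroxyacyl-CoA dehydrogenase and a thiolase. Long chains are handled at the inner membrane by the trifunctional protein, made of the Hadha and Hadhb subunits, and shorter chains in the matrix by separate enzymes, among them Hadh and Acaa2. Ech1 and Decr1 rearrange double bonds so that unsaturated chains can enter the cycle. The adult heart draws most of its energy from this pathway, and several of its genes are textbook targets of PPAR alpha and the estrogen-related receptors.

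The probe sequences decided which rows could stand for a gene. In 4 members, Acads, Acadvl, Hadh and Decr1, 2 rows stood under the same symbol. In each of them, one row was built from probes on the strand of the gene and the other from a single probe, designed on an expressed sequence tag, on the opposite strand of the rn3 genome build named in the file headers. For Acadvl the opposite pair overlapped. The probes are shown because they read the same stretch of chromosome 10 from either strand, with capitals marking the 47 bases of each whose reverse complement lies in the other:
Acadvl, same strand, chr10:56870993-56871052, minus: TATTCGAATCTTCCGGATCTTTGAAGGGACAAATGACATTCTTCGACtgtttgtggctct
Acadvl, opposite strand, chr10:56871006-56871065, plus: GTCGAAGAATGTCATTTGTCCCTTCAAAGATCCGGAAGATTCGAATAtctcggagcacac

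The opposite-strand row of Acadvl averaged -2.56 on the log2 scale in 8-week females, against 5.23 for the row of the gene's own strand. Probes differ in how brightly they bind, so this gap is one of signal only. Deviations of the opposite-strand probe from its group means followed those of the lead probe with Pearson's r of 0.17 over 30 hearts in Acadvl, 0.29 in Hadh and -0.26 in Decr1, and with r of 0.80 in Acads. These correlations are descriptions over arrays that share the scaling of both probes. One row per gene is called the lead row below, chosen by signal and not by strand. It is the row whose probe was well above background on the most of the 30 arrays, then the brightest. Each lead probe was well above background on 30 of 30 arrays and was saturated on none. The strand of a gene was taken from its lead probe, designed in all 10 genes on a RefSeq transcript. Lead rows are thus of the gene's own strand by definition.

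Hadha and Hadhb encode the subunits of the trifunctional protein, so their probes are given as well. The lead row of Hadha was the mean of 3 probes, and the first one below, well above background on 29 of 30 arrays, averaged only -1.92 at 8 weeks while the lead probe averaged 7.11. The second spans an intron, its 60 bases lying across 564 bases of the genome. The third is the single probe of Hadhb:
Hadha, chr6_random:452205-452264, plus: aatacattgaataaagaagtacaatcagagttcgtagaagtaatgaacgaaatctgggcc
Hadha, chr6_random:467174-467737, plus: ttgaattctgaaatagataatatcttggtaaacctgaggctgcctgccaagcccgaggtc
Hadhb, chr6:26147453-26147512, minus: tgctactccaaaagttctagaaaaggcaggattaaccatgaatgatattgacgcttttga

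Both genes start from one short stretch of chromosome 6 and run away from each other. In the RefSeq annotation of GRCr8 the start site of Hadha lies at 31907801 on the plus strand and that of Hadhb at 31907500 on the minus strand, with 300 bases between them. The 250 bases before the Hadha start, all of them within this interval, are shown because the coordination of the pair is measured below:
chr6:31907551-31907800, plus: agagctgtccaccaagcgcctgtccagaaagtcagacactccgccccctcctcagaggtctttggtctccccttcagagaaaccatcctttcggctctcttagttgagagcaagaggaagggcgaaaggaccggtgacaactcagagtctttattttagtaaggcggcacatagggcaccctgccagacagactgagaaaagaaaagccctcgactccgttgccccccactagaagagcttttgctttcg

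Promoter windows of RefSeq on GRCr8, 250 bases before to 50 after the start, were at hand for 6 members: Hadh, Acadm, Hadhb, Hadha, Acadvl and Acads. The short nuclear receptor site AGGTCA was found on either strand in 2 of 6, Hadhb and Acadvl, against 15.7% of 27457 promoters. DR1, a direct repeat of that site with 1 base between the copies, was in 0 of 6 (0.0583% of all promoters). The estrogen-related receptor element, which extends the same site by 3 bases at its 5′ end, was in 0 of 6 (0.412% of all). A match is a description of the letters only, and their absence from this window says nothing about binding elsewhere.

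Some arrays stood apart before any comparison was made. Over 14886 probes well above background on all 30 arrays, the median distance of female replicate 4 at 78 weeks to the other arrays of that age was 0.314 (median absolute log2 difference), while the others ranged from 0.131 to 0.217. Male replicates 2 and 5 at 21 weeks had distances of 0.397 and 0.399, against 0.172 to 0.230 for the other arrays of that age. Their 75th percentiles of processed signal were 39.9 and 72.1. That of male replicate 4 was 65.6, those of male replicates 1 and 3 were 103 and 105, and those of females of that age 82.7 to 123. Sex differences at 21 weeks were refitted without 1 rat at a time only, and the part of array brightness in them was not tested. At 78 weeks 1 array labelled female, replicate 2, had values of -1.67 and 0.59 for Ddx3y and Eif2s3y, which lie on the Y chromosome, as males did, and 1 array labelled male, replicate 3, had -6.24 and -6.35, as females did. Labels were kept, and the members' sex and age counts and median correlations that use 78 weeks are given also without both arrays. Counts for the interaction, the other lists and the cell type markers are given with both arrays only. Each slide held the sexes at fixed array positions, so sex and position cannot be told apart.

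Values below are log2 of the deposited signal, where 0 is the 75th percentile of the array's table. A value compares rats for 1 gene and says nothing of one gene's level against another's, since probes differ in how brightly they bind. In the acyl-CoA dehydrogenases of young rats, the very long chain enzyme Acadvl was measured at 5.16 to 5.32 in females and 5.11 to 5.25 in males. The long chain enzyme Acadl ran from 7.88 to 8.26 and from 7.78 to 8.27. The medium chain enzyme Acadm lay at 6.29 to 6.51 and 6.19 to 6.36, while the short chain enzyme Acads was more spread, at 6.59 to 7.17 and 6.35 to 6.85. Acads was the loosest of these 4 between rats of one sex in females and males (SD 0.22 and 0.24, n = 5), while Acadvl had SDs of 0.07 and 0.06.

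**Figure D1:**
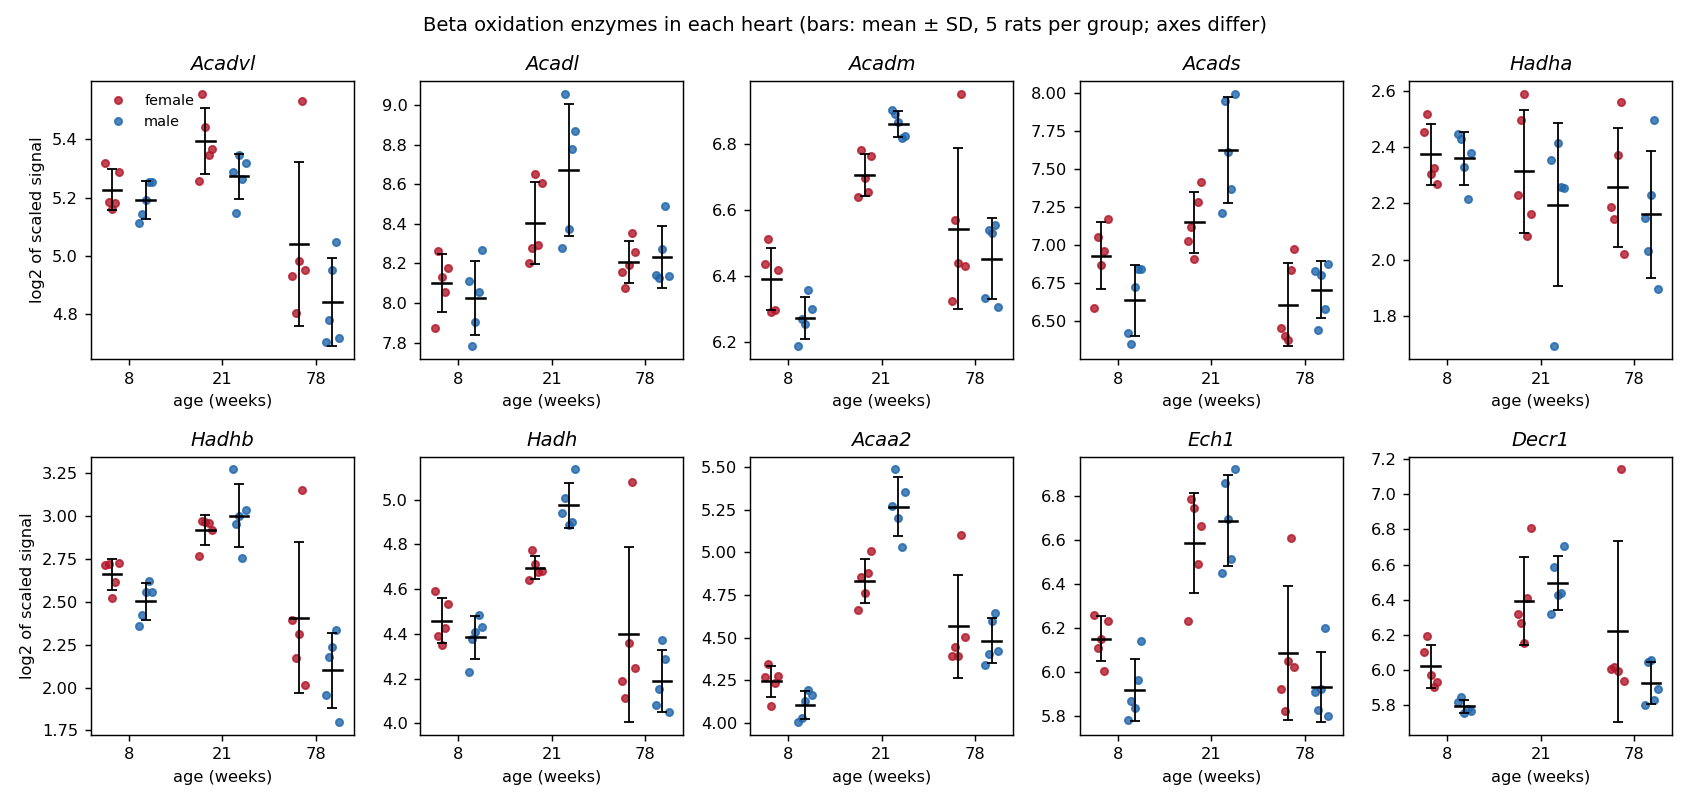
Deposited values of the 10 lead rows in every rat, as log2 of the scaled signal, by age in weeks and sex (points: rats; bars: mean ± SD, 5 rats per group). Acaa2 of 21-week males lies between 5.03 and 5.49, above all 21-week females at 4.66 to 5.00, and Decr1 of 1 old female lies at 7.14, far above the other old rats at 5.80 to 6.05.

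The first comparison asked whether young female and male hearts differed in these enzymes. All 14 rows had a higher mean in females at 8 weeks, where 48.9% of all 27408 rows did, and the median difference was 0.13 on the log2 scale (female minus male) against -0.004 over all rows. None of the 14 passed limma's test at an adjusted p of 0.05, which 0.102% of all rows did. At an unadjusted p of 0.05, 3 of 14 rows passed, all higher in females, beside 2.21% of all rows in that direction. The 3 were Decr1, Ech1 and the opposite-strand row of Acads. Rows of 1 array share its scaling, so their common direction is 1 observation rather than 14.

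Decr1, the dienoyl-CoA reductase for unsaturated chains, gave the clearest separation at 8 weeks. Its values were 6.10, 6.19, 5.97, 5.90 and 5.93 in the 5 females and 5.82, 5.85, 5.76, 5.78 and 5.77 in the 5 males. Every female lay above every male, a pattern seen in 0.558% of all rows. The difference was 0.23 ± 0.07 (SE; exact permutation p = 0.00794, the smallest that 5 against 5 rats allow; limma adjusted p = 0.696). Within the 3 slides, on rows rebuilt from the scanner values, it was 0.31, 0.16 and 0.17, females above males on each.

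Ech1, the dienoyl-CoA isomerase that also serves unsaturated chains, measured 6.26, 6.11, 6.15, 6.004 and 6.23 in young females and 5.78, 5.87, 5.84, 5.96 and 6.14 in young males. The groups overlapped through 1 male. The difference was 0.23 ± 0.09 (SE; exact permutation p = 0.0238, limma adjusted p = 0.785). Acads differed by more, 0.29 ± 0.14, but with the wider spread between rats (exact permutation p = 0.0873, limma adjusted p = 0.892).

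Of the thiolase step, Acaa2 was higher in young females by 0.14 ± 0.07 (SE; exact permutation p = 0.0397, limma adjusted p = 0.900), and 4 of the 5 females lay above every male. Hadhb, the thiolase subunit of the trifunctional protein, was higher by 0.16 ± 0.08, with overlapping groups (exact permutation p = 0.0556, limma adjusted p = 0.892). The remaining lead rows had smaller differences. They were 0.12 in Acadm, 0.07 in Acadl and Hadh, 0.04 in Acadvl and 0.01 in Hadha, and the 95% interval of Hadha ran from -0.16 to 0.18. The row of Hadha averages its dim probe with the others, and its lead probe alone differed by 0.19 ± 0.08 (SE; limma adjusted p = 0.913). Fibroblast markers moved the other way in the same hearts. The summed level of Col1a1, Col1a2, Col3a1, Pdgfra and Dcn was 7.69 to 7.89 in young females and 7.97 to 8.13 in young males, and its part in the differences above was not tested.

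The same question at 21 weeks had a different answer in direction for most of these genes. Of the 14 rows, 10 had the lower mean in females, with a median difference of -0.13, beside the -0.14 over all rows of that table, where 36.8% had the higher mean in females. None of the 14 passed at an adjusted p of 0.05 (0.0511% of all rows did). At an unadjusted p of 0.05, 3 of 14 passed, all higher in males, beside 9.67% of all rows in that direction. They were Acaa2, Acads and Hadh. The numbers of the male columns at 21 weeks did not match the replicate numbers of the labels, so male values are given in the order of the columns.

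Acaa2, the matrix thiolase, measured 4.66, 4.86, 4.76, 4.88 and 5.00 in adult females and 5.27, 5.49, 5.20, 5.03 and 5.35 in adult males. No female reached the lowest male. The difference was -0.44 ± 0.13 (SE; exact permutation p = 0.00794, limma adjusted p = 0.271). Within the 3 slides, on rows rebuilt from the scanner values, it was -0.62, -0.29 and -0.35.

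Hadh, the matrix 3-hydroxyacyl-CoA dehydrogenase, measured 4.64, 4.78, 4.71, 4.68 and 4.68 in adult females and 4.94, 5.01, 4.89, 4.90 and 5.14 in adult males, again with no overlap. Its difference was -0.28 ± 0.11 (SE; exact permutation p = 0.00794, limma adjusted p = 0.288). Acadm also separated the sexes, at 6.64 to 6.78 in females and 6.82 to 6.90 in males, with a difference of only -0.15 ± 0.10 (SE; exact permutation p = 0.00794, limma adjusted p = 0.419). In 3 of the 14 rows, then, all females lay below every male, beside 2.12% of all rows. Under quantile normalization the difference of Acadm was 0.06 and its direction turned, while those of Acaa2 and Hadh kept theirs. With normexp background correction all 3 turned, to 0.48 in Acadm, 0.078 in Acaa2 and 0.17 in Hadh.

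Acads of adult rats measured 7.03, 7.12, 6.91, 7.28 and 7.42 in females and 7.21, 7.95, 7.61, 7.37 and 8.00 in males. The groups overlapped, and the males were widely spread (SD 0.35, n = 5). The difference was -0.48 ± 0.18 (SE; exact permutation p = 0.0397, limma adjusted p = 0.288). Only Acadvl and Hadha had the higher mean in adult females among the lead rows, by 0.12 ± 0.11 and 0.12 ± 0.17 (SE), both with overlapping groups. Acadl, Hadhb, Ech1 and Decr1 were lower in females by means, at -0.27, -0.08, -0.10 and -0.10, each within the spread between rats. The endothelial markers Pecam1, Cdh5, Kdr, Vwf and Tek summed to 5.81 to 6.25 in adult females and 4.89 to 5.90 in adult males. Their 5 rows were mixed, 2 with the higher and 3 with the lower mean in females (median difference -0.03). The 7 cardiomyocyte markers summed to 10.7 to 11.2 and 10.9 to 12.0, although 8 of their 15 rows had the higher mean in females (median difference 0.24). The part of either list in the differences of the members was not tested.

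**Figure D2:**
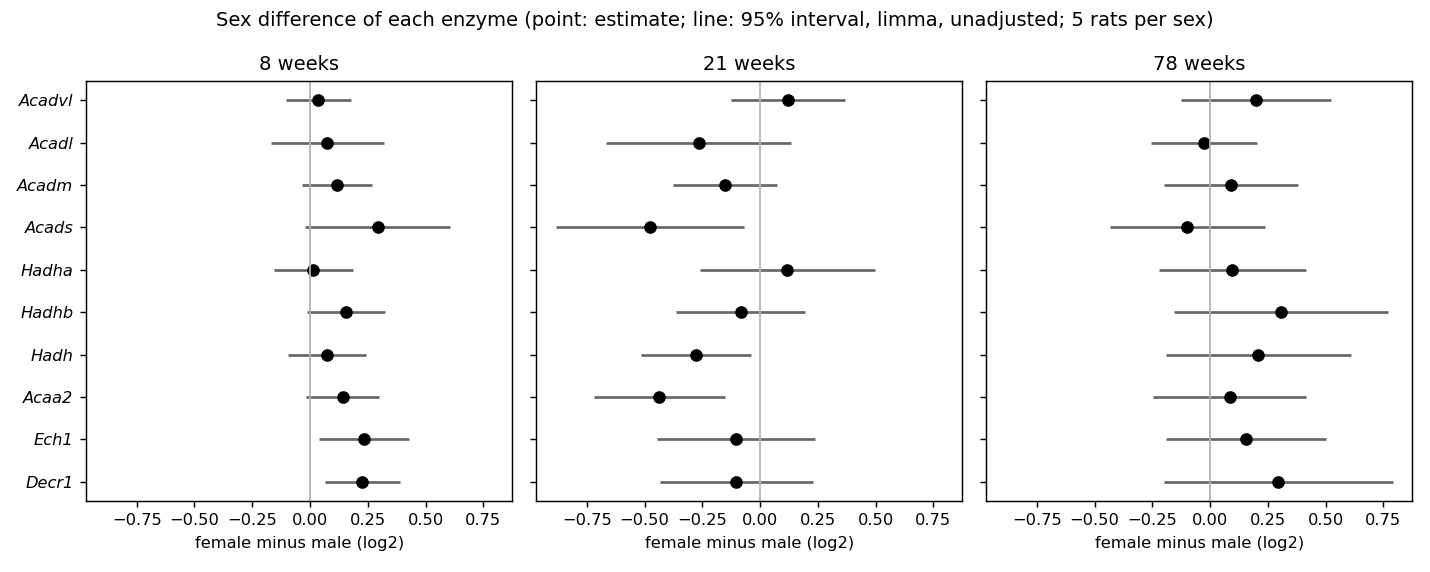
Difference between females and males (female minus male, log2) of the 10 lead rows at each age, with points for the estimate and lines for the unadjusted 95% interval of limma, 5 rats per sex. All 10 points lie above 0 at 8 weeks, 8 of 10 lie below 0 at 21 weeks, and at 78 weeks the interval of every enzyme includes 0.

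In old rats 11 of the 14 rows had the higher mean in females, with a median difference of 0.09 against -0.004 over all rows, of which 49.2% were higher in females. None passed at an adjusted p of 0.05, as was true of all 26553 rows (0% called), and none at an unadjusted p of 0.05 (5.65% of all rows). The largest differences were Hadhb at 0.31 ± 0.21 and Decr1 at 0.30 ± 0.22 (SE). Both rested on 1 rat. Decr1 measured 6.004, 6.02, 5.997, 7.14 and 5.94 in the 5 females and 5.80, 6.05, 6.05, 5.83 and 5.89 in the 5 males. Hadhb measured 2.39, 2.17, 2.31, 3.15 and 2.01 in females and 1.95, 2.18, 2.24, 2.33 and 1.80 in males. Female replicate 4 was the highest rat in both. Without it, the difference fell to 0.07 in Decr1 and 0.12 in Hadhb, and turned to -0.05 in Acaa2 and -0.01 in Acadm. Without both arrays whose Y-linked values went against their label, 0 of 14 rows passed at either threshold.

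Female replicate 4 was therefore described on its own. On the probe scale, which is log2 of the processed signal minus the array's 75th percentile over all probes, 8 of the 10 lead probes were higher in it than in the other 9 old rats. It was higher in 32.2% of the 14886 probes and lower in 22.6%. The Decr1 probe was at 8.06, against 6.67 to 6.93 in the other old rats. Hadhb was at 4.07 against 2.65 to 3.30, Hadha at 7.56 against 6.71 to 7.12 and Acadvl at 7.31 against 6.47 to 6.80. Acads and Acadl were the exceptions, at 7.75 and 9.27, inside the ranges of the others (7.26 to 7.85 and 8.96 to 9.40). The opposite-strand probe of Decr1 went the other way, at -3.23 against -2.45 to -1.71.

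Other genes of fatty acid use were in part high in that heart. Of probes well above background on all 30 arrays, 11 of 17 on a list of PPAR genes lay above all other old rats and 1 below. On a list of mitochondrial helper enzymes 10 of 22 lay above, and on a peroxisomal list 5 of 12, with 0 below on either. Over all 14886 probes 32.2% lay above and 22.6% below, and in the brightest 10% of them 36.9% and 14.6%. Of 17 such cardiomyocyte probes 6 lay above and 2 below, and all 7 such fibroblast probes lay below. Among the PPAR probes above, Cpt1b, the muscle carnitine palmitoyltransferase, was at 8.34 against 7.64 to 8.09. Slc25a20, the carnitine-acylcarnitine carrier, was at 5.05 against 4.31 to 4.69, and Esrra, the estrogen-related receptor alpha, at 5.96 against 5.30 to 5.66. Ppargc1a, a coactivator, went the other way, at -0.30 against -0.21 to 0.16, and so did Angptl4, a lipoprotein lipase inhibitor, at -1.37 against -0.31 to 1.19 on a probe well above background on 29 of 30 arrays. The lead probe of Hbb, a hemoglobin chain, was at 3.16 against 4.67 to 5.21, and 1 probe of Col3a1, a collagen chain, was at 5.59 against 5.96 to 6.74. The 4 erythroid markers summed to 3.15 in that heart, the lowest of the old females, whose median was 4.82. Single erythroid probes were mixed. Of 5 well above background on all 30 arrays, 3 lay below all other old rats, 1 above and 1 inside their range. The 1 above was that of Hba-a2, another hemoglobin chain, at 1.27 against 0.85 to 1.25. What set this array apart was not tested.

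**Figure D3:**
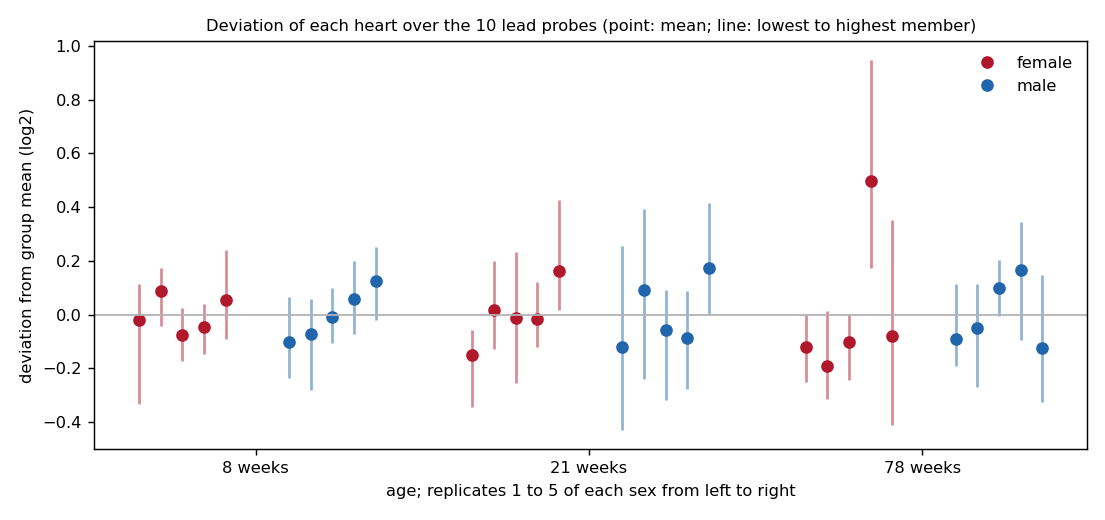
Mean deviation of the 10 lead probes from their group means (log2) in each of the 30 hearts, by age and sex (point: mean; line: lowest to highest member). Female replicate 4 at 78 weeks stands at 0.50, while the other 29 hearts lie between -0.19 and 0.17.

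Whether the sex difference changed with age was tested in the same fit over all arrays. Of the 19 member probes, 0 passed an adjusted p of 0.05 in any of the 3 pairs of ages, where 0, 1 and 1 of 41012 probes did (0%, 0.00244% and 0.00244%). The smallest adjusted p was that of the second probe of Acaa2 from 21 to 78 weeks, where the sex difference changed by 0.64 ± 0.18 (SE; limma adjusted p = 0.249). From 8 to 21 weeks those of Acaa2 changed by -0.56 ± 0.19 and -0.61 ± 0.18 in its 2 probes and those of Acads by -0.77 ± 0.24 and, on the opposite strand, -0.79 ± 0.28 (limma adjusted p = 0.283 in all 4). At an unadjusted p of 0.05, 4 of 19 passed from 8 to 21 weeks, beside 17% of all probes. The change of direction between young and adult rats seen above was thus not past the test for any of the 10 genes.

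Levels were then compared between ages, with sexes averaged and the slide as a random block. The ages were hybridized on different slides, except for 1 slide that held 4 arrays, 1 female and 1 male each of 8 and of 78 weeks, so age and array batch cannot be told apart. From 8 to 78 weeks, 5 of 19 member probes passed an adjusted p of 0.05, all higher in old rats, beside 10.9% of all probes (5.76% higher). Of these 5, 3 were on the gene's own strand: both probes of Acaa2 and the probe of Acadm. The opposite-strand probes of Acads and Hadh were the others.

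The opposite-strand probes of Acads and Hadh changed most, by 0.61 ± 0.13 and 0.58 ± 0.19 (SE; limma adjusted p = 0.0020 and 0.048). Among probes on the gene's own strand, Acaa2 had the largest such change. Its lead probe measured 5.54 to 5.93 (mean 5.76 ± 0.13, SD, n = 10) at 8 weeks and 5.997 to 6.78 (6.24 ± 0.25, SD, n = 10) at 78 weeks, with no overlap. The difference was 0.49 ± 0.09 (SE; limma adjusted p = 0.00023), and its second probe gave 0.41 ± 0.08 (limma adjusted p = 0.0014), while the median over all probes was 0.12. Acadm rose by 0.27 ± 0.07 (limma adjusted p = 0.0073), from 6.94 to 7.31 in young rats and 7.16 to 7.87 in old rats, with overlap. On the shared slide the differences were 0.22 and 0.28 in the probes of Acaa2 and 0.07 in Acadm, and with slide as a fixed block 0 of 19 probes passed (0.461% of all probes did). Under quantile normalization 4 of 19 passed (10.4% of all), both of Acaa2 and those of Acadm and the opposite strand of Acads, all higher in old rats. With normexp the differences of Acaa2 and Acadm turned to -0.10 and -0.32, and no probe on the gene's own strand passed (0.885% of all probes did).

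The other members did not pass from 8 to 78 weeks. Acadl was at 0.26 and Decr1 at 0.27, Ech1 and Hadh at 0.08 and 0.07, Acads at -0.02, Hadha at -0.12, Acadvl at -0.14 and Hadhb at -0.22. Leaving out female replicate 4 at 78 weeks changed this picture: 8 of 19 probes then passed. Both probes of Acaa2, Acadm and the opposite-strand probe of Acads were still higher in old rats. Another 4 probes were lower, 2 of Acadvl at -0.20 and -0.26, Hadhb at -0.32 and the second probe of Hadh at -0.26. Without that rat the members of the thiolase step thus moved apart with age, Acaa2 by 0.42 and Hadhb by -0.32.

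**Figure D4:**
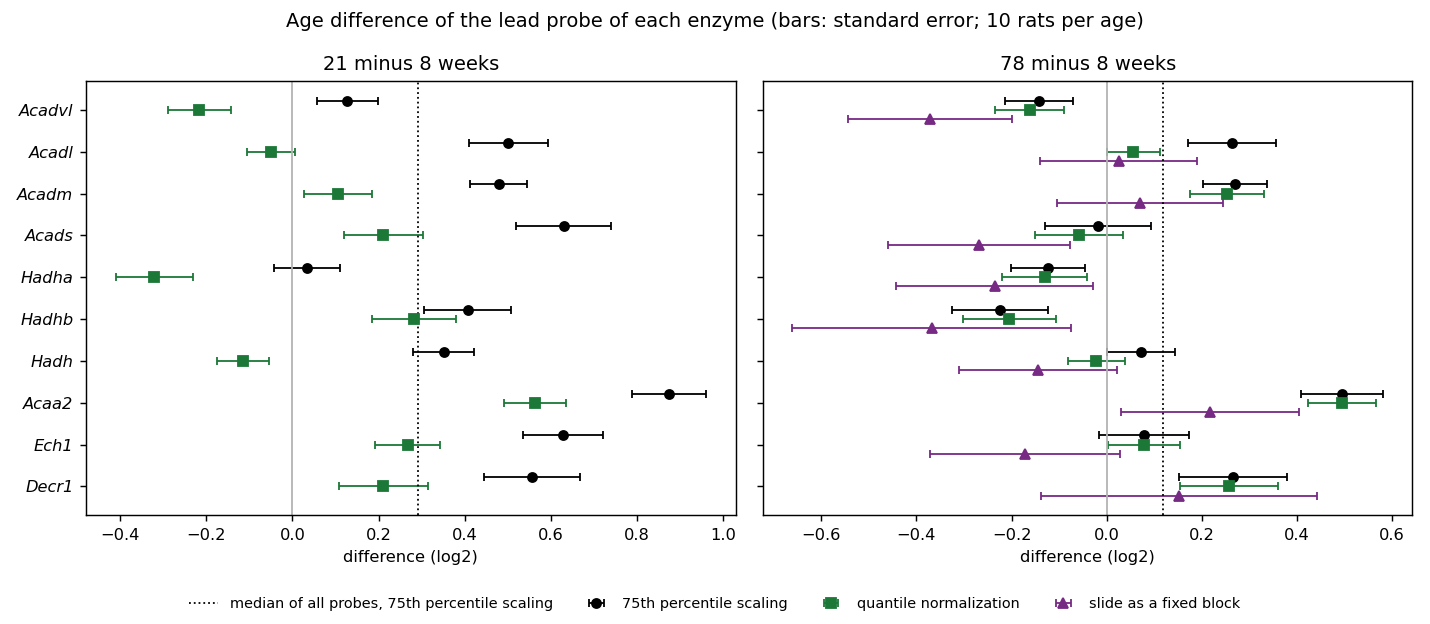
Difference of the lead probe of each enzyme between ages (log2, 10 rats per age) under 75th percentile scaling, quantile normalization and, for 78 minus 8 weeks, slide as a fixed block, with bars for the standard error and a dotted line at the median of all probes. Acaa2 lies farthest to the right in both panels, at 0.87 and 0.49 under 75th percentile scaling.

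The adult arrays were shifted, those of males more than those of females. In males only, 21989 of 41012 probes passed from 8 to 21 weeks, 16401 of them higher in adults, with a median of 0.389. In females only, 3371 passed, 1548 higher and 1823 lower in adults, with a median of 0.157. With sexes averaged, 57.5% of all probes passed (42.4% higher in adults), with a median of 0.29. Of the 19 member probes 14 passed, 13 higher and 1 lower in adults. Member changes are therefore set beside this 0.29, and beside a median of 0.16 over the 14886 probes well above background on every array. Neither is matched to the brightness of a member. Acaa2 was at 0.87 ± 0.09 and 0.93 ± 0.08, Acads and Ech1 at 0.63, Decr1 at 0.56, Acadl at 0.50, Acadm at 0.48, Hadhb at 0.41 and Hadh at 0.35. The lead probes of Acadvl at 0.13 and Hadha at 0.03 did not pass. The other probes of Hadha went apart, the dim one lower in adults at -0.61 ± 0.18 and the third higher at 0.32 ± 0.09.

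Cell type markers changed in the same comparison. From 8 to 21 weeks 9 of 10 fibroblast probes passed, 3 higher and 6 lower in adults (median -0.43), 5 of 7 endothelial probes passed, all lower (median -0.53), and 18 of 18 cardiomyocyte probes passed, 10 higher and 8 lower (median 0.34). From 8 to 78 weeks 5 of 10 fibroblast probes passed, 1 higher and 4 lower in old rats, with 1 of 7 endothelial probes lower and 2 of 18 cardiomyocyte probes higher. From 21 to 78 weeks 3, 4 and 14 of these probes passed. Their part in the age differences of the members was not tested.

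Quantile normalization removes such a shift. Under it 10 of 19 probes passed (30.8% of all), with Acaa2 at 0.56 and 0.73, Hadhb at 0.28 and Ech1 at 0.27 higher in adults, and Acadvl at -0.22 and Hadha at -0.32 lower. The lead probes of Acadl at -0.05, Acadm at 0.11, Hadh at -0.12 and Acads and Decr1 at 0.21 did not pass. Acaa2, Hadhb and Ech1 were higher in adults than in young rats under both scalings. From 21 to 78 weeks 14 of 19 probes passed, 13 of them lower in old rats, beside 33.1% of all probes (19.5% lower; median -0.19). Under quantile normalization 4 passed (30.4% of all), Hadhb at -0.49, Acads at -0.27, the second probe of Hadh at -0.55 and the second probe of Acaa2 at -0.30, all lower in old rats.

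Chain length preference was described by the difference of log2 values of the lead probes of 2 enzymes within an array, which does not depend on the array's scaling factor. Its size has no meaning, and only its change between groups does. Acads over Acadvl, short against very long chain, was 0.80 ± 0.21 in young females and 0.58 ± 0.19 in young males (SD, n = 5). In adults it was 0.86 ± 0.22 in females and 1.53 ± 0.38 in males, with ranges of 0.54 to 1.06 and 1.16 to 2.01 that did not overlap. With deposited rows in place of lead probes the adult ranges were 1.47 to 2.05 and 1.92 to 2.81, which overlap. In old rats it was 0.66 ± 0.24 and 0.97 ± 0.26. Acadm over Acadvl, medium against very long chain, was 0.27 ± 0.06 and 0.21 ± 0.07 in young females and males, 0.42 ± 0.08 and 0.77 ± 0.13 in adults and 0.59 ± 0.15 and 0.72 ± 0.06 in old rats. The ratios were given no test, since these pairs were read after the values of their members.

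In young rats the ratio of the thiolases was tighter than both ratios above, and in adult and old rats it was looser than Acadm over Acadvl. On the lead probes, Acaa2 over Hadhb was 2.38 ± 0.02 in young females and 2.40 ± 0.03 in young males (SD, n = 5). In these 10 hearts it stayed between 2.36 and 2.45. It was 2.70 ± 0.11 and 3.02 ± 0.20 in adults, and 2.95 ± 0.26 and 3.26 ± 0.16 in old rats. Every young heart lay below every adult and old heart, whose lowest values were 2.57 and 2.70. Deposited rows gave 1.54 to 1.64 in young hearts, and lowest values of 1.79 and 1.95 in adult and old hearts. Ages lay on different slides, so this change too cannot be told apart from batch.

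Coordination was measured as Pearson's r between 2 members' deviations from their group means over the hearts, for all 45 pairs of lead probes. Over 30 hearts the median r was 0.61, and all 45 pairs were above 0. Pairs drawn from all 14886 probes had a median of 0.03, and pairs from the brightest 10%, 1489 probes, one of 0.37. At 8 weeks the members' median was 0.50 (brightest 10% 0.17), at 21 weeks 0.37 (brightest 10% 0.57) and at 78 weeks 0.82 (brightest 10% 0.26). In adults the bright probes were thus above the members, but without male replicates 2 and 5, whose arrays stood apart, the medians at 21 weeks were 0.38 for members and 0.29 for the brightest 10%. Without the pair of arrays whose Y-linked values contradicted the label, the median at 78 weeks was 0.88 (brightest 10% 0.24). These are descriptions over arrays that share 1 scaling.

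Female replicate 4 carried much of the value in old rats. Without it the median at 78 weeks was 0.51 (brightest 10% 0.33), and over all hearts 0.41 (brightest 10% 0.40). Under quantile normalization, with all arrays, the medians were 0.56 over 30 hearts, 0.51 at 8 weeks, 0.46 at 21 weeks and 0.72 at 78 weeks, where the brightest 10% was at -0.003, 0.001, 0.003 and 0.005. With normexp background correction the members reached 0.96 over 30 hearts, but so did bright probes, at 0.94.

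**Figure D5:**
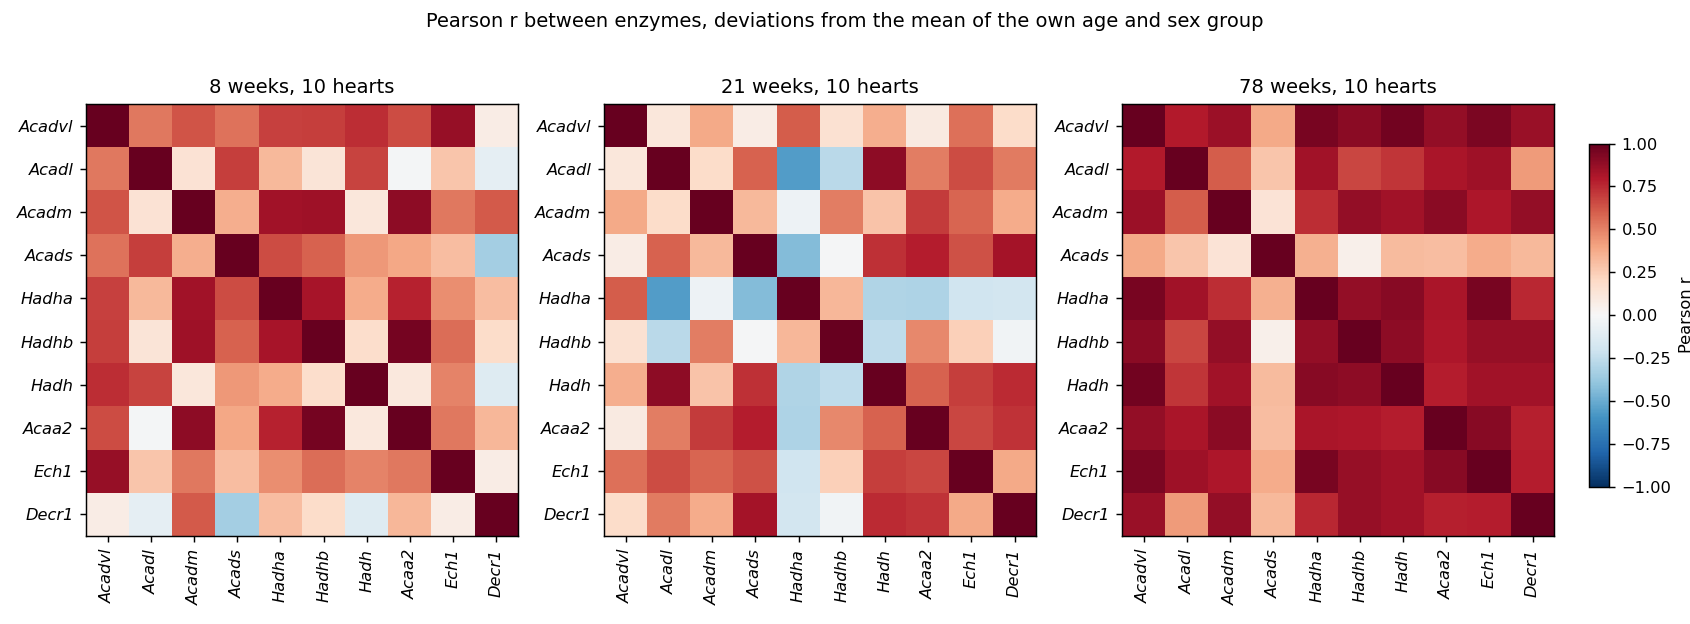
Pearson's r between deviations from group means for each pair of the 10 lead probes, within each age (10 hearts each), on a colour scale from -1 to 1. The old hearts show the highest values, with Acads apart from the rest, and in adult hearts Hadha is negative with several members.

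Some members took part less than others. Acads had a median r of 0.31 with its 9 partners at 78 weeks, where the other 9 members had medians of 0.72 to 0.88. Without female replicate 4 the medians of Acads and Decr1 were -0.03 and 0.01, and those of the other members ran from 0.48 to 0.68. At 8 weeks Decr1 had the lowest median, 0.08, and at 21 weeks Hadha, -0.20. The highest pair at 8 weeks was Hadhb with Acaa2, the thiolases, at 0.96. At 21 weeks it was Acadl with Hadh at 0.89, and at 78 weeks Acadvl with Hadh at 0.97.

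Hadha and Hadhb, the head-to-head pair shown above, were tested as 1 pair in 4 sets of hearts. Over 30 hearts Pearson's r was 0.80 (permutation p = 1e-05, the smallest that 100000 resamples give; adjusted over 4 tests 4e-05) and Spearman's rho 0.68 (permutation p = 8e-05, adjusted 0.00032). Without the 2 hearts farthest from the median of Hadha, r was 0.63. Within ages r was 0.83 at 8 weeks (rho 0.68; permutation p = 0.0024 and 0.035, adjusted 0.0033 and 0.046), 0.33 at 21 weeks (rho 0.27; permutation p = 0.32 and 0.45, adjusted 0.32 and 0.45) and 0.88 at 78 weeks (rho 0.77; permutation p = 0.0014 and 0.012, adjusted 0.0029 and 0.024). Leaving out the 2 farthest hearts gave 0.76, 0.21 and 0.57 at the 3 ages. Without female replicate 4 alone, r was 0.68 at 78 weeks and 0.61 over the other 29 hearts. A pair of bright probes has a median r of 0.37 over 30 hearts, and 38.1% of such pairs are above 0.5. Among the 45 member pairs, whose median r was 0.61, Hadha with Hadhb was not the highest. Acadvl with Hadha was at 0.86, Acadm with Acaa2 at 0.84 and Acadm with Hadhb at 0.83. The part of the shared stretch of chromosome 6 in the r of the pair was not tested.

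Other genes of the pathway were followed from lists. The mitochondrial helper list, enzymes of related acyl-CoA steps and electron transfer flavoproteins, had rows for 13 of 16 genes. In its 22 rows 0 passed for sex at any age, with median differences of 0.08, -0.18 and 0.09 at 8, 21 and 78 weeks. At 8 weeks 18 of 22 were higher in females, and the smallest p values were those of Eci1, the enoyl-CoA isomerase (0.19 ± 0.07, SE; limma adjusted p = 0.789), and Acadsb, the short/branched chain dehydrogenase (0.17 ± 0.09; adjusted p = 0.913). At 21 weeks Hsd17b10 (-0.72 ± 0.25; limma adjusted p = 0.279) and Ivd (-0.33 ± 0.12; adjusted p = 0.283) came first. At 78 weeks these were Acadsb and Eci1, with differences of 0.26 and 0.21 (limma adjusted p = 0.856 in both).

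Between 8 and 78 weeks 6 of 24 helper probes passed (10.9% of all probes did), all higher in old rats: 2 of Eci1 at 0.73 and 0.66, Acad11 at 0.67, 2 of Hsd17b10 at 0.47 and 0.44, and 1 of Etfb, an electron transfer flavoprotein subunit, at 0.34. The list's median was 0.04, under the 0.12 of all probes. From 8 to 21 weeks 20 of 24 passed (57.5% of all), all higher (median 0.42), led by Eci1 at 0.82 and Ivd at 0.79. From 21 to 78 weeks 14 of 24 passed (33.1% of all), all lower (median -0.32), led by Eci1 at -0.83 and Hsd17b10 at -0.80.

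The peroxisomal list, where very long chains are first shortened, had rows for 11 of 13 genes and 0 of 19 rows passed for sex at any age. The median differences were 0.04, -0.21 and 0.07 at 8, 21 and 78 weeks. Scp2 was among the smallest p at 8 weeks, at 0.15, and Decr2 and Scp2 had the smallest at 21 weeks, at -0.43 and -0.51. At 78 weeks these were Crot and Decr2, on rows well above background on 0 of the 10 arrays. Between 8 and 78 weeks 6 of 20 probes passed (10.9% of all), all higher in old rats (median 0.26), among them Acaa1b, the peroxisomal thiolase, at 1.08, Decr2 at 0.47 and 2 of Scp2 at 0.34 and 0.32. From 8 to 21 weeks 9 of 20 passed (57.5% of all), all higher (median 0.23), with Decr2 at 0.97 and Acaa1a at 0.63. From 21 to 78 weeks 6 passed (33.1% of all), 2 higher and 4 lower (median -0.06), with Acaa1b at 1.08 and Acaa1a at -0.59.

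The PPAR list, receptors, coactivators and known targets, had rows for 20 of 20 genes, and 0 of its 30 rows passed for sex. At 8 weeks 25 of 30 were higher in females (median 0.10), and 9 passed an unadjusted p of 0.05, beside 5.74% of all rows. Pdk4, the kinase that turns off pyruvate dehydrogenase, was higher in young females by 0.53 ± 0.12 (SE; exact permutation p = 0.00794, limma adjusted p = 0.301). At 21 weeks the list's median was 0.06 while that of the members was -0.13, and Pdk4 was again higher in females, by 0.82 ± 0.26 (exact permutation p = 0.00794, limma adjusted p = 0.277). At 78 weeks the median was 0.11, and Ppard and Mlycd had the smallest p, at 0.31 and 0.29.

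For age, 17 of the 20 PPAR genes had probes. From 8 to 78 weeks 10 of 26 passed (10.9% of all), 8 higher and 2 lower in old rats (median 0.19). Angptl4, a lipoprotein lipase inhibitor, was highest at 2.23 ± 0.30 (SE; limma adjusted p = 9.1e-06), followed by 2 probes of Pdk4 at 1.097 and 0.86 and 1 of Cd36, a fatty acid transporter, at 0.63. Esrrg, an estrogen-related receptor, was lower, at -0.89, on a probe well above background on 8 of 30 arrays. From 8 to 21 weeks 18 of 26 passed (57.5% of all), 15 higher and 3 lower (median 0.30), with Angptl4 at 1.20 and Ppargc1a, the coactivator, at -0.82. From 21 to 78 weeks 12 passed (33.1% of all), 5 higher and 7 lower (median -0.05), with Angptl4 at 1.03, a probe of Pdk4 at 0.86, Ppargc1b at 0.68 and Fabp3, the heart fatty acid binding protein, at -0.67.

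The genes most like the members were sought by the same measure, Pearson's r with the mean deviation of the 10 lead probes over 30 hearts. The first named gene was Ckmt2, the sarcomeric mitochondrial creatine kinase, at 0.91, followed by Bckdha, a branched chain keto acid dehydrogenase subunit, at 0.90, Rnf166 at 0.90, Txnrd2, the mitochondrial thioredoxin reductase, at 0.89, Dirc2 and Actl6a at 0.89, and Mettl11a at 0.88. The probes A_44_P1056599 (annotated as similar to Nit protein 2), A_42_P767467 and A_44_P853540 were at 0.93, 0.90 and 0.88. Without female replicate 4 at 78 weeks these 10 values were 0.73 to 0.84 and 9 of the 10 left the first 10 places, with ranks of 9 to 375, so the order rests on that heart. On the related lists, with that heart included, the median r was 0.47 over 22 mitochondrial helper probes, 0.38 over 12 peroxisomal probes and 0.51 over 21 PPAR probes. No such median was taken without that heart or over bright probes. The highest on these lists were 1 probe of Cd36 at 0.87, Acaa1a at 0.86 and Slc25a20 at 0.85. Echs1, the short chain hydratase of the second step, was at 0.84. The other Cd36 probe was at 0.15, and Ppargc1a was the lowest at -0.58.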

How the data were processed

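RNA of 30 whole hearts was labeled with Cy3 and hybridized to Agilent rat arrays with 43379 spots other than controls, 1 array per rat. Intensities were extracted by the authors with Agilent Feature Extraction 9.5.1.1 (per the file headers), which subtracted background. The deposited table of each age holds an intensity per gene or probe name on a linear scale, which the authors divided by the 75th percentile and from which they removed genes not expressed. A row was the geometric mean of the processed signal over probes of 1 name: 98.0%, 98.0% and 97.9% of rows at 8, 21 and 78 weeks were matched to the scanner files within 0.002 log2, over 10, 5 and 10 arrays. The deposited flags (other) gave background and saturation calls. No depth applies to arrays, and 5 rats per sex limit the precision.

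Sex differences were tested with limma 3.58.1 (R 4.3.3) on log2 of the deposited intensity, no pseudocount, with Benjamini-Hochberg adjustment over all rows of an age and a threshold of 0.05, and with two-sided exact permutation tests of the sex labels. Age and interaction were fitted with limma on 41012 probes (log2 processed signal minus the array's 75th percentile), with slide as a random block (correlation -0.042). Sex differences within slides and with 1 rat left out used rows rebuilt from the scanner values and scaled again. Replicates were separate rats. Coordination used scipy 1.17.1. The step was tested on simulated data with known changes: of changes of 1 on the log2 scale, 52.2%, 25.4% and 58.2% were recovered for sex at 8, 21 and 78 weeks, and of changes of 0.5, 19.4%, 1.49% and 16.4%.

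Members and lists were chosen with earlier results of these data known, so they give no independent support. Every member was named. Of each other list, up to 5 genes with the largest change past the threshold in a contrast were named, or the 2 with the smallest p where none passed, and the 10 genes most like the members. Some genes that this rule names are not reported here. Replicate numbers are shared by both sexes. Same-numbered females and males deviated together at 78 weeks (5 of 5 correlations above 0.1, from 0.14 to 0.30, each best with its own number). Replicates 2 and 3, at 0.30 and 0.21, each hold an array whose Y-linked values went against its label. Same-numbered samples also shared a slide at every age. Whether the numbers pair rats can therefore not be told, and the part of the slide or of the labels was not tested. At 8 weeks correlations ran from -0.21 to 0.20, and only replicate 5 was best with its own number. At 21 weeks they ran from -0.16 to 0.55, and replicates 1, 2 and 5 were best with theirs. Alternatives were other background corrections and normalizations, other rows of a name, blocks, and leaving out arrays, and 3 were added after the data were seen: single probes, and coordination without arrays that stood apart.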

Additional observations from a re-analysis of the deposited data

Results flagged for a closer look

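In 60 groups of 5 rats (10 lead rows, 3 ages, 2 sexes) 6 held a rat whose gap to its nearest neighbour was large against the range of the group, where chance gives about 5% of groups, or 3. Of the 6, 4 were female replicate 4 at 78 weeks: Decr1 at 7.14 with the next old female at 6.02, Acaa2 at 5.10 (next 4.501), Acadvl at 5.53 (next 4.98) and Hadh at 5.08 (next 4.36), all log2 of the deposited signal. The other 2 were adult rats at the low end. Hadha of 1 male at 21 weeks was at 1.69 (next 2.26), and Hadhb of female replicate 1 at 21 weeks was at 2.77 (next 2.92).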

How the results depend on the processing

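Sex differences of the 10 lead rows (30 values, none past an adjusted p of 0.05) kept their direction in 30 of 30 under the methods' t-test, scanner values, the slide block, the replicate block, averaged rows of a name and probes well above background, and none became significant; unadjusted, the methods' t-test passed 5, 4 and 0 of 14 rows at 8, 21 and 78 weeks. Settings that rescale the array turned several, and the cause was not tested. With normexp the female minus male difference of Acadl was -0.011 at 8 weeks. At 21 weeks it was 0.26 in Acadl, 0.48 in Acadm, 0.075 in Acads, 0.36 in Hadhb, 0.17 in Hadh, 0.078 in Acaa2, 0.31 in Ech1 and 0.38 in Decr1. At 78 weeks it was -0.15 in Acadvl, -0.16 in Acadm, -0.072 in Hadha, -0.032 in Hadh, -0.23 in Acaa2, -0.21 in Ech1 and -0.046 in Decr1. Quantile normalization gave -0.035 in Acadl at 8 weeks and, at 21 weeks, 0.12 in Acadl, 0.064 in Acadm, 0.10 in Ech1 and 0.091 in Decr1. The raw median signal gave -0.0028 in Acadl at 8 weeks, 0.073 in Acadm, -0.00024 in Hadha and 0.043 in Hadhb at 21 weeks, and 0.056 in Acadl and 0.0057 in Acads at 78 weeks. The first row of a name gave 0.046 in Decr1 at 21 weeks, and 0.016 in Acads and -0.15 in Decr1 at 78 weeks. Without the pair of arrays whose Y-linked values contradicted the label, Acadl at 78 weeks was 0.017.

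Age differences of the lead probes turned as follows. With normexp, 78 minus 8 weeks was -0.10 in Acaa2, -0.31 in Acadl, -0.32 in Acadm, -0.29 in Decr1, -0.50 in Ech1 and -0.50 in Hadh, and 21 minus 8 weeks was -0.024 in Acadl, -0.038 in Acadm, -0.40 in Acadvl, -0.18 in Hadh, -0.50 in Hadha and -0.051 in Hadhb. With quantile normalization, 21 minus 8 weeks was -0.051 in Acadl, -0.22 in Acadvl, -0.12 in Hadh and -0.32 in Hadha, 78 minus 21 weeks was 0.11 in Acadl, 0.15 in Acadm, 0.055 in Acadvl, 0.046 in Decr1, 0.094 in Hadh and 0.19 in Hadha, and 78 minus 8 weeks was -0.022 in Hadh. With the raw median signal, 21 minus 8 weeks was -0.015 in Acadvl and -0.11 in Hadha. With slide as a fixed block, 78 minus 8 weeks was -0.17 in Ech1 and -0.14 in Hadh. For Acads it was 0.18 in males only and 0.011 without the pair of arrays named above.

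Counts of the 19 member probes past an adjusted p of 0.05 moved too. From 8 to 78 weeks (5) they were 0 with slide as a fixed block, 1 with normexp, 0 in females only and 2 in males only, from 8 to 21 weeks (14) 1 with normexp and 2 in females only, and from 21 to 78 weeks (14) 0 with normexp, 4 with quantile normalization and 0 in females only. The replicate block gave 4, 14 and 13, losing the opposite-strand probe of Hadh from 8 to 78 weeks and the lead probe of Decr1 from 21 to 78 weeks, and changed no other of these calls; for sex it gave 0 at each age. Without the pair of arrays named above, 4, 15 and 12 passed. The median r between members was 0.96 over 30 hearts, 0.97 at 21 weeks and 0.97 at 78 weeks with normexp, and 0.38 at 8 weeks and 0.60 at 78 weeks by Spearman.

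Leaving out 1 rat at a time left 0 to 0 sex and interaction calls, and 4 to 8, 14 to 15 and 12 to 15 age calls for 78 minus 8, 21 minus 8 and 78 minus 21 weeks, the 8 without female replicate 4 at 78 weeks. Sex differences then ranged from -0.024 to 0.038 in Hadha at 8 weeks, -0.0054 to 0.18 in Hadha at 21 weeks, and at 78 weeks -0.062 to 0.039 in Acadl, -0.011 to 0.15 in Acadm and -0.048 to 0.13 in Acaa2. The 78 minus 8 week difference of Acads ranged from -0.066 to 0.020. For the median r, male replicate 2 at 21 weeks and female replicate 4 at 78 weeks were left out singly: over all ages it was 0.67 without the first and 0.41 without the second, at 21 weeks 0.46 without the first and at 78 weeks 0.51 without the second. Arrays give no depth, and lead probes were well above background on 30 of 30 arrays.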
